A study of Mus musculus with 24 samples.

Results

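Cholesterol synthesis, uptake and efflux were followed through 35 mouse genes in RNA sequencing of ER-Hoxb8 cells, myeloid progenitors held immature by a conditional Hoxb8 protein. The members were 20 enzymes of synthesis, 7 regulators of the SREBP transcription factors, both liver X receptors (LXR), 2 efflux transporters and 4 genes of uptake, transport and storage. They were chosen by name from the 53801 genes of the count table, and 34 of them were among the 12963 genes with enough counts to be tested. The member below the filter was *Nr1h3*, which encodes LXR alpha and held 0 to 3 counts in each of the 24 libraries. The study asked how the ERG oncoprotein works with the NCoR-HDAC3 corepressor. Its cells carried human WT-ERG, the P199L-ERG substitution mutant or the empty vector (BB), and each line was given either BRD3308, an inhibitor of HDAC3, or the solvent (DMSO). Each of the 6 groups had 4 replicate libraries.

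All groups shared the C57BL/6 strain, the ER-Hoxb8 background and the washing away of beta-estradiol, which switches Hoxb8 off and starts differentiation toward neutrophils. The inhibitor was given at 5 µM for 36 h per the methods, although the results text and a legend of the study name another time and another dose. The ERG cDNA was expressed from a human PGK promoter in a lentiviral vector, and the GFP-positive cells were sorted into stable lines. The replicates were independent experiments, but separate transductions were not described, so that a difference between constructs can include a difference between lines. Differences between constructs therefore describe these lines.

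Cholesterol is built from acetyl-CoA through mevalonate to the isoprenoid diphosphates, and from squalene and lanosterol through a series of sterol intermediates. When sterols in the endoplasmic reticulum run low, SCAP carries the SREBP precursors to the Golgi, where the proteases encoded by *Mbtps1* and *Mbtps2* release the active factors, while the INSIG proteins hold SCAP back when sterols are plentiful. Oxidised sterols activate LXR, which raises the efflux transporters ABCA1 and ABCG1 and *Mylip*, so that synthesis and export commonly move in opposite directions in macrophages.

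The libraries held 12510036 to 16280939 counts, and none was a duplicate of another in its group. In DMSO, replicate 4 of WT-ERG and replicate 4 of P199L-ERG stood apart, with deviations that correlated with exon length at -0.491 and -0.443 across genes, against -0.218 to 0.437 in the other libraries. Calls that changed without these libraries are given beside the results. The label of myeloid progenitors was checked against 5 markers of granulocyte-monocyte progenitors (*Elane*, *Mpo*, *Prtn3*, *Ctsg* and *Ms4a3*), whose summed level was 22258 to 30445 CPM (counts scaled to the library total) across the libraries. Counts of mouse *Erg* were 93.6 ± 4.02 CPM in BB, 105 ± 3.72 CPM in WT-ERG and 101 ± 4.41 CPM in P199L-ERG (mean ± SD, n = 4, DMSO), and reads of the human cDNA were not separated from those of the endogenous gene, so that *Erg* does not check the construct labels.

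Sequences upstream of the start sites are shown for 7 members, because the synthesis genes moved together and are known SREBP targets, whereas *Abca1* and *Srebf1* are known LXR targets. RefSeq promoter windows (build GRCm38.p6, around each start site) were matched to 29 of the 35 members, and *Fdps*, *Fdft1*, *Sqle*, *Abcg1*, *Npc1* and *Stard4* had no entry. Capitals mark matches to the sterol element TCACNCCAC, the NF-Y box CCAAT, the E-box CACGTG and the LXR repeat, 2 copies of GGTNA set 5 bases apart, each searched on both strands, with N for any base. The motifs were counted separately, whether or not their matches overlapped. The first 4 belong to enzymes of synthesis, *Hmgcs1* at chr13:119690166-119690320 on the plus strand, *Mvd* at chr8:122443433-122443502 on the minus strand, *Lss* at chr10:76531525-76531587 on the plus strand and *Nsdhl* at chrX:72918412-72918510 on the plus strand. *Mvd*, *Lss* and *Nsdhl* were chosen after their values were seen. *Hmgcs1* is the only member of the 29 with a sterol element, between 2 NF-Y boxes, and the other stretches of this set hold NF-Y boxes. The last 3 belong to regulators and an efflux transporter, *Insig1* at chr5:28071187-28071326 on the plus strand, *Srebf1* at chr11:60210487-60210666 on the minus strand and *Abca1* at chr4:53159936-53160050 on the minus strand. *Insig1* carries an NF-Y box and an E-box, *Srebf1* an LXR repeat and an NF-Y box, and *Abca1* an E-box and an LXR repeat. None of the stretches overlaps an annotated exon, and they lie in no gene except that of *Mvd*, within an intron of *Gm20388*, and that of *Srebf1*, within an intron of *Srebf1* upstream of an internal start.
Hmgcs1: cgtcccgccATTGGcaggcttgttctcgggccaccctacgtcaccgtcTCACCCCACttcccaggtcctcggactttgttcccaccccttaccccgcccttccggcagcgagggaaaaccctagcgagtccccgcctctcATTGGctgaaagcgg
Mvd: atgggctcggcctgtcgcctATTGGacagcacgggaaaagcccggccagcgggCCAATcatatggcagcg
Lss: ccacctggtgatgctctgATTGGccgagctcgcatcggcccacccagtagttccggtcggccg
Nsdhl: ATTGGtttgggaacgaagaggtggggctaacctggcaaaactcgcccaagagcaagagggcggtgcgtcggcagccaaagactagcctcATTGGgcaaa
Insig1: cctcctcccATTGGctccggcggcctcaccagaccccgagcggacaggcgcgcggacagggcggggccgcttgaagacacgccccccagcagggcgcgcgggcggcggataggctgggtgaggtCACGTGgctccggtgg
Srebf1: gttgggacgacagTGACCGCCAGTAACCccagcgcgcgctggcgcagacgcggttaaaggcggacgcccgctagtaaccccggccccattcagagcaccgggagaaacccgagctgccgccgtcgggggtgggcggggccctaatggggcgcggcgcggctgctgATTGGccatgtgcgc
Abca1: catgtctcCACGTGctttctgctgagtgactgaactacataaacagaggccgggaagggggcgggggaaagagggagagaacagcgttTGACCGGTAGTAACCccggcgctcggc

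NF-Y boxes were found in the windows of 16 of the 17 synthesis genes with an entry, all but *Acat2*, and of 6 of the 12 other members. A gene can have several windows, and by window they were in 16 of 20 for synthesis genes (80%) and 23 of 38 for all members (60.5%), against 37.4% of all 32817 promoter windows. The synthesis genes with an NF-Y box included *Ggps1* and *Lbr*, which rose with BRD3308 in each line, and *Sc5d*, which passed the test in none. *Acat2*, without the box, fell in each line. The GC box GGGCGG was found for 15 of the 17 synthesis genes and 9 of the 12 others, or 16 of 20 windows of synthesis genes (80%) and 28 of 38 of all members (73.7%), against 35.6% of all windows. The E-box lay upstream of *Hsd17b7*, *Sc5d*, *Dhcr7*, *Scap*, *Insig1* and *Abca1*, in 7 of 38 member windows (18.4%), against 7.15% of all windows. Sterol elements of these letters occurred in 1.24% of all windows and LXR repeats in 0.719%. The set of all windows was not limited to genes with enough counts to be tested here, so that it is not matched to the members. A match describes these letters in this window only.

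In DMSO-treated BB cells the members spanned from *Lbr* to *Abca1* on the length-scaled FPKM scale (here the CPM per kilobase of the GENCODE M21 exon union). *Lbr*, which encodes a sterol reductase of the inner nuclear membrane, was highest at 74.4 ± 1.17 FPKM (mean ± SD, n = 4). *Srebf2*, the main SREBP gene of cholesterol synthesis, followed at 47.4 ± 0.733 FPKM and *Insig1* at 44.3 ± 2.23 FPKM. Of the 20 enzymes of synthesis, 13 lay between the 36.8 ± 1.92 FPKM of *Ebp*, the sterol isomerase, and the 17.7 ± 0.0518 FPKM of *Fdft1*, squalene synthase. Neighbours in this order often lay within their SD, as did *Ebp* and *Nsdhl* (36.7 ± 1.85 FPKM), and *Mvd*, *Sc5d*, *Hmgcs1*, *Sqle* and *Fdps* at 30.1 to 31.3 FPKM. *Fdps* shares 1124 bases of exon with *Gm43738* on the same strand, and *Mbtps2* shares 2867 with *Yy2*. Both of these other genes held 0 counts, and the values of *Fdps* and *Mbtps2* are uncertain. The lowest enzyme was *Idi1*, isopentenyl diphosphate isomerase, at 2.38 ± 0.264 FPKM. The efflux transporters closed the order, with *Abcg1* at 1.93 ± 0.0923 FPKM and *Abca1* at 0.0884 ± 0.0141 FPKM.

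BRD3308 lowered most enzymes of cholesterol synthesis in all 3 lines and raised both efflux transporters. Of the 20 synthesis enzymes, 14 were lower and 2 higher in BB, 15 lower and 2 higher in WT-ERG, and 17 lower and 2 higher in P199L-ERG (edgeR quasi-likelihood test, Benjamini-Hochberg adjusted p below 0.05). Their median log2 fold changes were -0.32, -0.35 and -0.38, against 0.0056, -0.0015 and -0.0062 over all genes tested. The response was broad in these cells, so that 22.0%, 23.2% and 24.1% of all genes were called lower and 23.9%, 24.7% and 24.4% higher. Over the 34 members, 7 were higher and 20 lower in BB, 8 and 20 in WT-ERG, and 8 and 21 in P199L-ERG, against 45.9%, 48.0% and 48.5% of all genes called in either direction. The libraries of treated and untreated cells did not overlap for 24, 28 and 26 of the 34 members, against 44.8%, 44.1% and 39.6% of all genes. In these bulk samples fewer cells of a type and less RNA per cell cannot be told apart.

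The same 18 members were lower in each line, namely 14 enzymes (*Acat2*, *Mvk*, *Pmvk*, *Mvd*, *Idi1*, *Fdps*, *Sqle*, *Lss*, *Cyp51*, *Tm7sf2*, *Msmo1*, *Nsdhl*, *Hsd17b7* and *Dhcr7*) together with *Srebf1*, *Scap*, *Insig1* and *Stard4*. Another 7 were higher in each line, namely *Ggps1*, *Lbr*, *Mbtps2*, *Abca1*, *Abcg1*, *Npc1* and *Soat1*. A further 6 passed the test in some lines only, and *Sc5d*, *Nr1h2* and *Mylip* passed in none. The fold changes of the 34 members correlated between lines at Pearson r = 0.971 (BB and WT-ERG), 0.963 (BB and P199L-ERG) and 0.963 (WT-ERG and P199L-ERG), with Spearman rho of 0.968, 0.936 and 0.957 and the same sign for 33, 33 and 34 members. These correlations are across genes, which are not independent replicates.

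**Figure D1:**
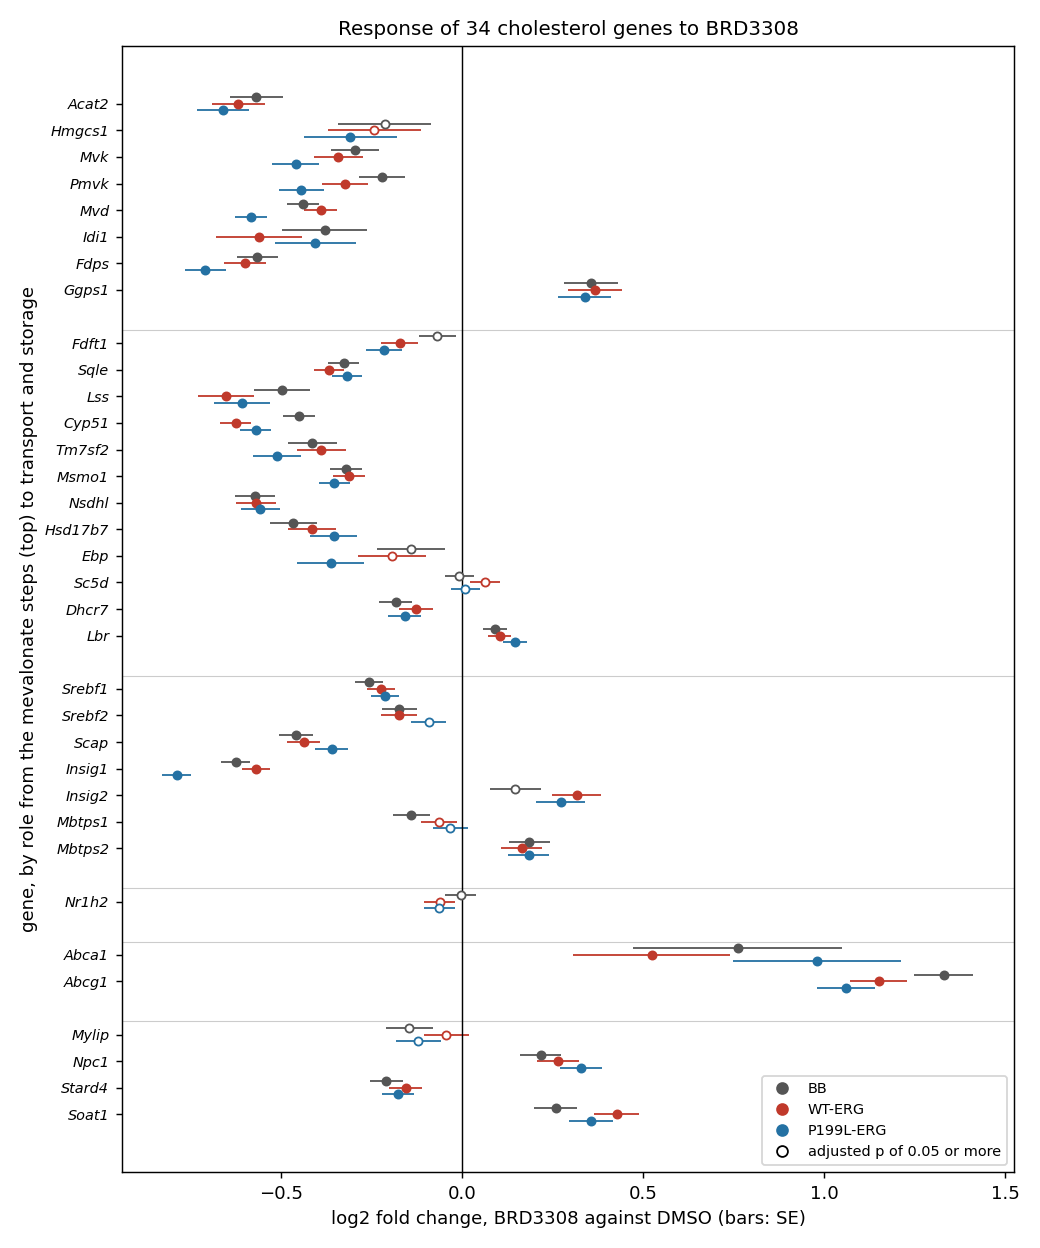
Log2 fold change of BRD3308 against DMSO for each of the 34 tested members in BB, WT-ERG and P199L-ERG cells, with bars of 1 SE and open symbols where the adjusted p was 0.05 or more. The synthesis enzymes lie mostly below 0, with *Ggps1* and *Lbr* above it, and *Abcg1* is the highest member in each line.

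Markers of other cell types moved with the same treatment. All 6 tested markers of monocytes and macrophages, of 7 listed, were higher with BRD3308 in each line. Their summed level went from 786 to 830 CPM in DMSO to 1821 to 1951 CPM with BRD3308 in BB, from 411 to 433 to 1308 to 1392 CPM in WT-ERG, and from 456 to 519 to 1496 to 1602 CPM in P199L-ERG. Of the 5 progenitor markers, 4 were lower and 1 higher in each line. The summed level of the B-cell markers, of which 2 of 3 were tested and higher, went from 4.31 to 5.67 CPM to 21.1 to 25.1 CPM in BB. It went from 3.51 to 4.95 CPM to 17.7 to 21.3 CPM in WT-ERG and from 3.54 to 4.99 CPM to 17.4 to 18.2 CPM in P199L-ERG. Neutrophil granule markers summed to 1289 to 2576 CPM over all libraries, with 2 of 5 lower in BB, 1 higher and 1 lower in WT-ERG and 1 lower in P199L-ERG. The summed level of mast cell and basophil markers, with *Fcer1a* at 0 counts, was lower without overlap, from 372 to 393 CPM to 298 to 339 CPM in BB, from 484 to 528 to 308 to 330 CPM in WT-ERG and from 416 to 488 to 269 to 289 CPM in P199L-ERG. Of the 4 tested, 1, 2 and 2 were called lower and 0 higher. Erythroid markers summed to at most 1.08 CPM with *Hba-a1* and *Hbb-bt* at 0. T-cell markers were at or below 0.794 CPM and those of stroma and endothelium at or below 1.39 CPM in all libraries. The 1 tested marker of stroma and endothelium was higher with BRD3308 in each line, with log2 fold changes of 1.70 in BB, 1.54 in WT-ERG and 1.88 in P199L-ERG. Of the macrophage list, *Ly86* was at 0 in treated WT-ERG cells. The part of these markers in the fold changes of the members was not tested.

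The mevalonate steps, from acetoacetyl-CoA to the isoprenoid diphosphates, had 6 of 8 members lower in BB and WT-ERG and 7 of 8 in P199L-ERG. *Acat2* makes acetoacetyl-CoA in the cytosol, at the start of the pathway. In DMSO, *Acat2* was at 75.6, 73.4, 68.5 and 64.9 CPM in BB, 79.3, 73.6, 77.7 and 83.9 in WT-ERG and 87.4, 83.0, 79.5 and 101 in P199L-ERG. With BRD3308, *Acat2* was at 52.9, 48.8, 46.9 and 41.8 CPM in BB, 54.0, 50.4, 52.2 and 48.0 in WT-ERG and 61.7, 53.8, 55.4 and 50.8 in P199L-ERG. All treated libraries of a line lay below all its untreated ones. The fall was 32.5% in BB, 34.8% in WT-ERG and 36.7% in P199L-ERG, or log2 fold changes of -0.57 (SE 0.07, adjusted p = 3.18e-07) in BB, -0.62 (SE 0.07, adjusted p = 5.68e-08) in WT-ERG and -0.66 (SE 0.07, adjusted p = 1.37e-08) in P199L-ERG. The close copy *Acat3* held 268 counts over all libraries, against 23134 for *Acat2*.

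*Mvd* encodes the decarboxylase that forms isopentenyl diphosphate, and its upstream stretch with 2 NF-Y boxes is shown above. In DMSO, *Mvd* was at 61.0, 58.1, 57.3 and 55.9 CPM in BB, 54.7, 52.9, 49.2 and 52.7 in WT-ERG and 60.9, 60.6, 61.0 and 61.6 in P199L-ERG. With BRD3308, *Mvd* was at 43.3, 43.9, 43.0 and 41.2 CPM in BB, 41.3, 39.5, 40.0 and 39.0 in WT-ERG and 43.5, 41.5, 39.5 and 38.3 in P199L-ERG. The libraries of treated and untreated cells did not overlap in any line. The log2 fold changes were -0.44 (SE 0.04, adjusted p = 4.49e-09) in BB, -0.39 (SE 0.05, adjusted p = 4.68e-08) in WT-ERG and -0.58 (SE 0.04, adjusted p = 1.46e-11) in P199L-ERG. *Fdps* makes farnesyl diphosphate, the last common precursor of sterols and prenyl groups. In DMSO, *Fdps* was at 125, 131, 130.4 and 121 CPM in BB, 113, 115, 123 and 125 in WT-ERG and 133, 129.9, 136 and 167 in P199L-ERG. With BRD3308, *Fdps* was at 83.7, 87.8, 85.4 and 86.3 CPM in BB, 82.3, 77.8, 77.4 and 77.0 in WT-ERG and 89.6, 88.2, 84.4 and 83.9 in P199L-ERG. Treated and untreated libraries were separate in each line, and P199L-ERG replicate 4 in DMSO was far above its group. For *Fdps* the log2 fold changes were -0.56 (SE 0.06, adjusted p = 3.28e-09) in BB, -0.60 (SE 0.06, adjusted p = 1.18e-09) in WT-ERG and -0.71 (SE 0.06, adjusted p = 3.13e-11) in P199L-ERG. *Pmvk* encodes phosphomevalonate kinase. In DMSO, *Pmvk* was at 34.7, 34.2, 33.6 and 30.5 CPM in BB, 32.6, 29.9997, 29.7 and 29.7 in WT-ERG and 33.3, 37.0, 36.4 and 41.7 in P199L-ERG. With BRD3308, *Pmvk* was at 26.4, 31.1, 29.2 and 27.6 CPM in BB, 24.1, 24.6, 23.9 and 24.8 in WT-ERG and 27.0, 28.9, 27.0 and 26.0 in P199L-ERG. The groups overlapped in BB and were separate in both ERG lines. For *Pmvk* the log2 fold changes were -0.22 (SE 0.06, adjusted p = 0.00523) in BB, -0.32 (SE 0.06, adjusted p = 0.000142) in WT-ERG and -0.44 (SE 0.06, adjusted p = 1.12e-06) in P199L-ERG.

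Among the other mevalonate enzymes, *Mvk*, mevalonate kinase, fell by 0.30 to 0.46 on the log2 scale across the lines and *Idi1* by 0.38 to 0.56. *Hmgcs1*, HMG-CoA synthase and the holder of the sterol element, had log2 fold changes of -0.21 (SE 0.13, adjusted p = 0.184) in BB, -0.24 (SE 0.13, adjusted p = 0.124) in WT-ERG and -0.31 (SE 0.13, adjusted p = 0.0474) in P199L-ERG, and its libraries overlapped in every line. With the replicate number as a block, the decrease of *Hmgcs1* in BB passed the test at -0.22 (SE 0.06, adjusted p = 0.0025). So did that in WT-ERG at -0.25 (SE 0.06, adjusted p = 0.000772), although replicate numbers paired less clearly in that response. Without the libraries that stood apart, the call in P199L-ERG was lost (-0.30, adjusted p = 0.0692). *Ggps1* went the other way. It makes geranylgeranyl diphosphate for protein prenylation, off the route to cholesterol, and its log2 fold changes were 0.36 (SE 0.07, adjusted p = 0.000277) in BB, 0.37 (SE 0.07, adjusted p = 0.000161) in WT-ERG and 0.34 (SE 0.07, adjusted p = 0.000404) in P199L-ERG. Without the strand, reads of *Ggps1* and *Arid4b*, which overlap over 257 bases of exon on opposite strands, cannot be told apart there.

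The sterol steps, from the joining of farnesyl groups to cholesterol, had 8 of 12 members lower in BB, 9 in WT-ERG and 10 in P199L-ERG. *Cyp51* encodes lanosterol 14-alpha-demethylase, the cytochrome P450 of the pathway. In DMSO, *Cyp51* was at 155, 152, 145 and 148 CPM in BB, 163, 159.5, 157 and 155 in WT-ERG and 167, 173, 164 and 193 in P199L-ERG. With BRD3308, *Cyp51* was at 111, 109, 114 and 105 CPM in BB, 106, 106, 101 and 98.9 in WT-ERG and 123, 116, 114 and 117 in P199L-ERG. No treated library reached an untreated one of its line. Levels fell by 26.8% in BB, 35.2% in WT-ERG and 32.6% in P199L-ERG, with log2 fold changes of -0.45 (SE 0.04, adjusted p = 1.59e-09) in BB, -0.63 (SE 0.04, adjusted p = 1.9e-12) in WT-ERG and -0.57 (SE 0.04, adjusted p = 1.18e-11) in P199L-ERG. *Nsdhl* encodes a sterol dehydrogenase that removes the C4 methyl groups, and its stretch opens with an NF-Y box. In DMSO, *Nsdhl* was at 100.1, 103, 112 and 104 CPM in BB, 98.1, 99.0, 101 and 111 in WT-ERG and 109, 114, 115 and 94.8 in P199L-ERG. With BRD3308, *Nsdhl* was at 66.8, 74.5, 71.6 and 68.9 CPM in BB, 66.4, 71.2, 68.8 and 69.3 in WT-ERG and 73.2, 73.9, 77.1 and 69.7 in P199L-ERG. The libraries were separate in each line, and the log2 fold changes lay within -0.57 to -0.56. With their errors they were -0.57 (SE 0.05, adjusted p = 1.47e-09) in BB, -0.57 (SE 0.05, adjusted p = 1.57e-09) in WT-ERG and -0.56 (SE 0.05, adjusted p = 2.02e-09) in P199L-ERG.

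*Sqle*, squalene epoxidase, catalyses a rate-limiting step after squalene. In DMSO, *Sqle* was at 172, 169, 171 and 160.4 CPM in BB, 175, 171, 172 and 176 in WT-ERG and 184, 179, 177 and 189 in P199L-ERG. With BRD3308, *Sqle* was at 143, 138, 130.5 and 124 CPM in BB, 140.0, 138, 131 and 128 in WT-ERG and 153, 150.4, 144 and 138 in P199L-ERG. Each line showed lower treated libraries with no overlap. For *Sqle* the log2 fold changes were -0.33 (SE 0.04, adjusted p = 3.05e-07) in BB, -0.37 (SE 0.04, adjusted p = 3.72e-08) in WT-ERG and -0.32 (SE 0.04, adjusted p = 4.38e-07) in P199L-ERG. *Lss*, lanosterol synthase, closes the ring system of the sterols. In DMSO, *Lss* was at 63.6, 66.3, 60.5 and 57.6 CPM in BB, 61.5, 60.7, 62.4 and 55.0 in WT-ERG and 67.5, 70.3, 65.6 and 53.6 in P199L-ERG. With BRD3308, *Lss* was at 44.9, 50.1, 41.8 and 39.3 CPM in BB, 40.3, 40.8, 36.2 and 35.1 in WT-ERG and 45.2, 43.9, 41.3 and 38.3 in P199L-ERG. The groups did not overlap, and the decreases were among the largest of the enzymes. For *Lss* the log2 fold changes were -0.50 (SE 0.08, adjusted p = 5.65e-06) in BB, -0.65 (SE 0.08, adjusted p = 8.15e-08) in WT-ERG and -0.61 (SE 0.08, adjusted p = 2.1e-07) in P199L-ERG.

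*Sc5d*, the sterol C5-desaturase, did not pass the test in any line. In DMSO, *Sc5d* was at 152, 155, 153 and 139.8 CPM in BB, 126, 123, 125 and 125 in WT-ERG and 139.6, 139, 137 and 133 in P199L-ERG. With BRD3308, *Sc5d* was at 155, 149, 143 and 149 CPM in BB, 131, 133, 128 and 129 in WT-ERG and 148, 144, 129 and 132 in P199L-ERG. Libraries overlapped in BB and P199L-ERG, and in WT-ERG the treated ones were slightly above the untreated ones. The log2 fold changes of -0.01 (SE 0.04), 0.06 (SE 0.04) and 0.01 (SE 0.04) had 95% intervals of -0.09 to 0.07, -0.02 to 0.14 and -0.07 to 0.09 (adjusted p = 0.901, 0.211 and 0.875). Of the remaining sterol enzymes, *Tm7sf2*, *Msmo1*, *Hsd17b7* and *Dhcr7* fell in all 3 lines, from -0.51 for the reductase *Tm7sf2* in P199L-ERG to -0.13 for *Dhcr7*, the last reductase of the pathway, in WT-ERG. *Fdft1* was at -0.07 (SE 0.05) in BB, where it did not pass, and fell to -0.17 and -0.21 in the ERG lines. Its exons share 774 bases with *Ctsb* on the opposite strand, a gene with 237860 counts against 26875 for *Fdft1*, so that its values are uncertain. *Ebp* was at -0.36 (SE 0.09, adjusted p = 0.00174) in P199L-ERG, where 1 untreated library held 132 CPM against at most 86.2 in the others. Without the libraries that stood apart, *Ebp* fell in all lines, at -0.14 (SE 0.04, adjusted p = 0.00268) in BB, -0.15 (SE 0.04, adjusted p = 0.0039) in WT-ERG and -0.18 (SE 0.04, adjusted p = 0.000758) in P199L-ERG. *Lbr* rose slightly in all lines, by 0.09, 0.10 and 0.15 on the log2 scale, and its product also anchors chromatin to the nuclear lamina. Values of *Tm7sf2* are uncertain as well, since 532 bases of its exons are shared with *Vps51* on the same strand.

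Summarised per library, the synthesis enzymes separated the treatments in every line. The median log2 deviation of the 20 enzymes from their mean over all libraries was 0.0627 to 0.188 in untreated BB cells and -0.217 to -0.0874 in treated ones. It was 0.0311 to 0.146 against -0.277 to -0.184 in WT-ERG, and 0.241 to 0.284 against -0.172 to -0.0604 in P199L-ERG. The untreated P199L-ERG libraries were the highest of the 24, with no overlap with the other groups. Both libraries that stood apart by exon length lay within or next to their groups, and the median exon length of the enzymes was 4409 bases against 4017 over the genes tested.

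**Figure D2:**
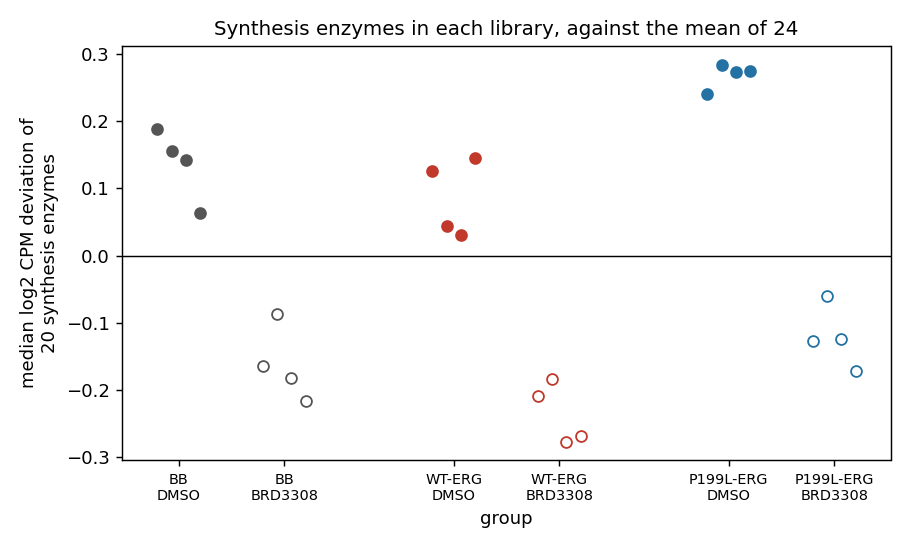
Median log2 CPM deviation of the 20 synthesis enzymes from their mean over all 24 libraries, with 1 point for each library by construct and treatment. The DMSO libraries lie above 0 and the BRD3308 libraries below 0 in each line, and P199L-ERG in DMSO is highest at 0.241 to 0.284.

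The regulators of SREBP activity did not move as one group. Of 7, 5 were lower and 1 higher in BB, 4 lower and 2 higher in WT-ERG, and 3 lower and 2 higher in P199L-ERG. *Insig1*, which encodes a sterol-responsive anchor of SCAP and is itself an SREBP target, had the lowest fold change of all members in BB and P199L-ERG. In DMSO, *Insig1* was at 131, 137, 133 and 147 CPM in BB, 137, 135, 137 and 142 in WT-ERG and 140.3, 153, 149.9 and 160.3 in P199L-ERG. With BRD3308, *Insig1* was at 89.1, 88.3, 91.4 and 86.2 CPM in BB, 90.9, 94.3, 92.4 and 93.6 in WT-ERG and 86.0, 86.9, 87.5 and 88.9 in P199L-ERG. The libraries were far apart in each line, with a drop of 42.1% in P199L-ERG. For *Insig1* the log2 fold changes were -0.62 (SE 0.04, adjusted p = 3.27e-13) in BB, -0.57 (SE 0.04, adjusted p = 2.36e-12) in WT-ERG and -0.79 (SE 0.04, adjusted p = 2.23e-15) in P199L-ERG. *Insig2*, whose product has the same role but whose gene does not depend on SREBP, did not follow. In DMSO, *Insig2* was at 20.9, 21.5, 21.02 and 18.5 CPM in BB, 22.6, 24.1, 20.1 and 22.2 in WT-ERG and 19.7, 23.4, 18.9 and 19.9 in P199L-ERG. With BRD3308, *Insig2* was at 22.6, 23.2, 24.6 and 20.4 CPM in BB, 27.7, 28.0, 26.9 and 28.1 in WT-ERG and 24.3, 25.3, 24.7 and 24.8 in P199L-ERG. Treated libraries were above untreated ones in the ERG lines and overlapped them in BB. For *Insig2* the log2 fold changes were 0.15 (SE 0.07, adjusted p = 0.0861) in BB, 0.32 (SE 0.07, adjusted p = 0.000293) in WT-ERG and 0.27 (SE 0.07, adjusted p = 0.00156) in P199L-ERG, and in BB 0.15 (SE 0.06, adjusted p = 0.0454) with the replicate number as a block.

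*Scap* encodes the escort protein of the SREBP precursors. In DMSO, *Scap* was at 68.0, 68.5, 66.0 and 68.7 CPM in BB, 73.3, 75.5, 72.5 and 70.3 in WT-ERG and 71.8, 64.3, 67.2 and 60.8 in P199L-ERG. With BRD3308, *Scap* was at 49.7, 50.1, 49.7 and 47.9 CPM in BB, 57.6, 52.1, 51.1 and 54.7 in WT-ERG and 53.2, 52.2, 50.1 and 50.2 in P199L-ERG. Treated libraries lay below untreated ones in all lines. For *Scap* the log2 fold changes were -0.46 (SE 0.05, adjusted p = 5.71e-09) in BB, -0.44 (SE 0.05, adjusted p = 9.86e-09) in WT-ERG and -0.36 (SE 0.05, adjusted p = 3.47e-07) in P199L-ERG. *Srebf1* encodes SREBP-1, which mainly drives fatty acid synthesis and is itself raised by LXR. In DMSO, *Srebf1* was at 134, 141, 153 and 148 CPM in BB, 141, 138, 140.4 and 142 in WT-ERG and 146, 147, 150.2 and 139 in P199L-ERG. With BRD3308, *Srebf1* was at 121, 123, 119 and 119 CPM in BB, 125, 116, 116 and 124 in WT-ERG and 126, 126, 127 and 125 in P199L-ERG. The decrease was small but without overlap in each line. For *Srebf1* the log2 fold changes were -0.26 (SE 0.04, adjusted p = 2.74e-06) in BB, -0.22 (SE 0.04, adjusted p = 1.83e-05) in WT-ERG and -0.21 (SE 0.04, adjusted p = 3.51e-05) in P199L-ERG. *Srebf2* fell by 0.17 on the log2 scale in BB and 0.17 in WT-ERG and was at -0.09 (SE 0.05, adjusted p = 0.123) in P199L-ERG. Without the libraries that stood apart, *Srebf2* passed in P199L-ERG as well, at -0.17 (adjusted p = 2.21e-05). Of the proteases, *Mbtps1* fell in BB by 0.14 on the log2 scale and did not pass in the ERG lines, while *Mbtps2* rose by 0.17 to 0.19.

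*Nr1h2*, the LXR receptor gene with enough counts, did not pass the test in any line. It encodes LXR beta. In DMSO, *Nr1h2* was at 129.9, 135, 139 and 141 CPM in BB, 123, 127, 131 and 138 in WT-ERG and 126, 128, 137 and 126 in P199L-ERG. With BRD3308, *Nr1h2* was at 129.9, 138, 139 and 137 CPM in BB, 122, 125, 117 and 133 in WT-ERG and 120.4, 125, 127 and 122 in P199L-ERG. The libraries overlapped in every line. The log2 fold changes were -0.0038 (SE 0.04, adjusted p = 0.954) in BB, -0.06 (SE 0.04, adjusted p = 0.248) in WT-ERG and -0.06 (SE 0.04, adjusted p = 0.239) in P199L-ERG, with 95% intervals of -0.09 to 0.08, -0.15 to 0.02 and -0.15 to 0.02. *Nr1h3* held 3, 4 and 1 counts over the 4 untreated libraries of BB, WT-ERG and P199L-ERG, and 5, 5 and 7 over the treated ones, too few for a comparison.

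Both efflux transporters rose with BRD3308, opposite to the enzymes. *Abcg1* exports sterols to high-density lipoprotein. In DMSO, *Abcg1* was at 14.0, 15.1, 13.6 and 13.7 CPM in BB, 16.5, 17.5, 14.6 and 15.1 in WT-ERG and 17.3, 18.4, 14.3 and 16.2 in P199L-ERG. With BRD3308, *Abcg1* was at 36.5, 36.4, 33.5 and 35.9 CPM in BB, 39.4, 36.6, 33.7 and 31.4 in WT-ERG and 38.9, 33.7, 33.9 and 31.6 in P199L-ERG. The highest untreated library of any line was at 18.4 CPM and the lowest treated one at 31.4 CPM. For *Abcg1* the log2 fold changes were 1.33 (SE 0.08, adjusted p = 1.47e-13) in BB, 1.15 (SE 0.08, adjusted p = 2.05e-12) in WT-ERG and 1.06 (SE 0.08, adjusted p = 1.06e-11) in P199L-ERG. *Abca1* loads cholesterol onto lipid-poor apolipoproteins, and its LXR repeat is shown above. In DMSO, *Abca1* was at 0.786, 0.888, 1.12 and 0.866 CPM in BB, 2.45, 1.70, 1.73 and 1.86 in WT-ERG and 1.41, 0.815, 1.46 and 1.78 in P199L-ERG. With BRD3308, *Abca1* was at 2.03, 1.69, 1.27 and 1.23 CPM in BB, 4.07, 2.59, 1.67 and 2.75 in WT-ERG and 2.94, 2.78, 2.48 and 2.50 in P199L-ERG. The groups overlapped in WT-ERG and were separate in BB and P199L-ERG, and each library held only 11 to 63 counts of the gene. For *Abca1* the log2 fold changes were 0.76 (SE 0.29, adjusted p = 0.0314) in BB, 0.52 (SE 0.22, adjusted p = 0.0469) in WT-ERG and 0.98 (SE 0.23, adjusted p = 0.000937) in P199L-ERG. The call in BB was lost without replicate 1, 2 or 4 in DMSO or replicate 1 or 2 in BRD3308 (0.59 to 0.74, adjusted p = 0.061 to 0.13). The call in WT-ERG was lost with DESeq2 (0.53, adjusted p = 0.1), with the 2 groups fitted alone (0.53, adjusted p = 0.0737) and without the libraries that stood apart (0.51, adjusted p = 0.0655), and the value dropped to 0.26 (adjusted p = 0.327) without replicate 1 in BRD3308.

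The genes of uptake, transport and storage were divided. *Soat1* esterifies cholesterol for storage. In DMSO, *Soat1* was at 111, 116, 114 and 104 CPM in BB, 94.1, 91.3, 87.9 and 81.4 in WT-ERG and 108, 101, 96.0 and 88.2 in P199L-ERG. With BRD3308, *Soat1* was at 146, 136, 124 and 126 CPM in BB, 127, 119.6, 122 and 108 in WT-ERG and 134, 126, 126 and 120.0 in P199L-ERG. It rose in every line without overlap. For *Soat1* the log2 fold changes were 0.26 (SE 0.06, adjusted p = 0.000898) in BB, 0.43 (SE 0.06, adjusted p = 1.66e-06) in WT-ERG and 0.36 (SE 0.06, adjusted p = 1.96e-05) in P199L-ERG. *Npc1* moves cholesterol out of the lysosome. In DMSO, *Npc1* was at 48.5, 49.3, 48.2 and 47.2 CPM in BB, 40.2, 36.8, 36.8 and 34.3 in WT-ERG and 40.6, 36.7, 33.8 and 31.7 in P199L-ERG. With BRD3308, *Npc1* was at 55.0, 59.2, 56.6 and 53.9 CPM in BB, 43.9, 44.1, 45.02 and 45.1 in WT-ERG and 47.5, 44.3, 42.9 and 44.9 in P199L-ERG. It too rose without overlap in each line. For *Npc1* the log2 fold changes were 0.22 (SE 0.06, adjusted p = 0.0023) in BB, 0.26 (SE 0.06, adjusted p = 0.000452) in WT-ERG and 0.33 (SE 0.06, adjusted p = 3.55e-05) in P199L-ERG. Reads of *Npc1* and *Rmc1* cannot be told apart over the 511 bases of exon that these opposite-strand genes share.

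*Stard4* encodes a soluble sterol carrier that is regulated by SREBP, and it fell. In DMSO, *Stard4* was at 167, 166, 158 and 146 CPM in BB, 158, 153, 145 and 147 in WT-ERG and 163, 169, 155 and 169 in P199L-ERG. With BRD3308, *Stard4* was at 138, 143, 133 and 137 CPM in BB, 143, 139, 129 and 131 in WT-ERG and 149, 145, 139 and 146 in P199L-ERG. The changes were small, and the libraries did not overlap. For *Stard4* the log2 fold changes were -0.21 (SE 0.04, adjusted p = 0.000337) in BB, -0.16 (SE 0.04, adjusted p = 0.00498) in WT-ERG and -0.18 (SE 0.04, adjusted p = 0.00155) in P199L-ERG. *Mylip* encodes a ubiquitin ligase that degrades lipoprotein receptors and is an LXR target, but it did not rise with the transporters. In DMSO, *Mylip* was at 23.6, 24.9, 24.4 and 24.02 CPM in BB, 27.9, 25.5, 24.7 and 26.0 in WT-ERG and 26.9, 27.5, 28.7 and 24.9 in P199L-ERG. With BRD3308, *Mylip* was at 24.9, 19.6, 22.5 and 20.3 CPM in BB, 25.04, 24.1, 25.7 and 26.2 in WT-ERG and 25.2, 25.1, 24.9995 and 24.1 in P199L-ERG. Libraries overlapped in all lines. For *Mylip* the log2 fold changes were -0.15 (SE 0.06, adjusted p = 0.0662) in BB, -0.04 (SE 0.06, adjusted p = 0.593) in WT-ERG and -0.12 (SE 0.06, adjusted p = 0.111) in P199L-ERG, and with the replicate number as a block the value in BB passed at -0.15 (SE 0.06, adjusted p = 0.0461). Without the libraries that stood apart, *Mylip* passed in P199L-ERG at -0.16 (adjusted p = 0.0431).

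**Figure D3:**
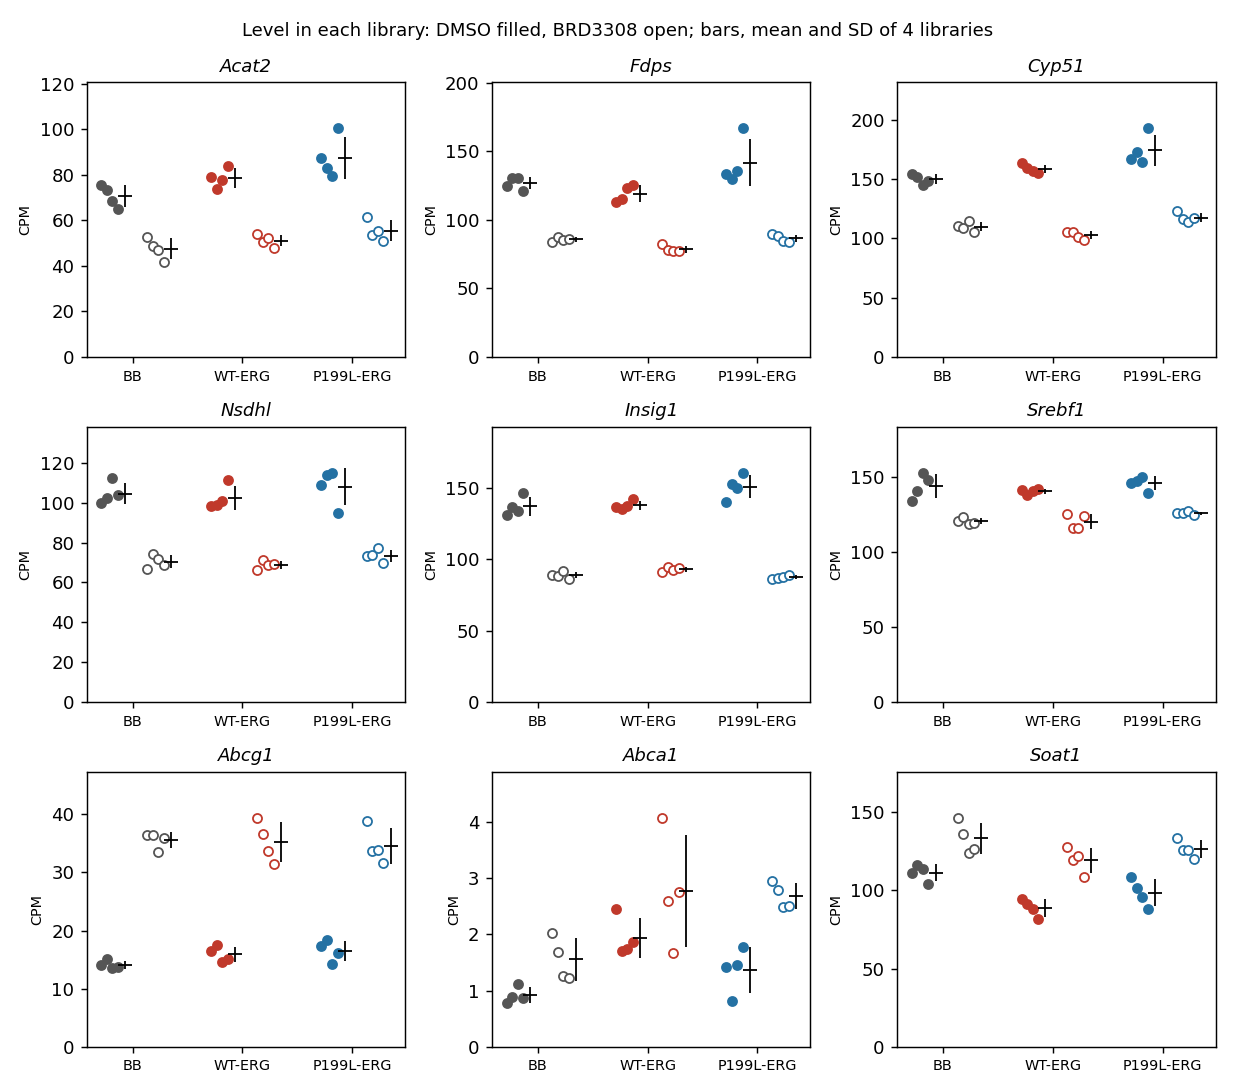
CPM in each library for 9 members, by construct, filled in DMSO and open in BRD3308, with crosses at each group mean (vertical line, SD) and every axis starting at 0. *Acat2*, *Fdps*, *Cyp51*, *Nsdhl*, *Insig1* and *Srebf1* are lower with BRD3308 in all 3 lines, and *Abcg1*, *Abca1* and *Soat1* are higher, with overlap of the libraries for *Abca1* in WT-ERG only.

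Other genes governed by SREBP or LXR were counted from lists of pathway genes. In the fatty acid arm of SREBP, 5 of 9 tested genes were lower and 1 higher in BB, 6 lower and 0 higher in WT-ERG, and 6 lower and 1 higher in P199L-ERG, against 45.9%, 48.0% and 48.5% of all genes called in either direction. *Acly*, which makes cytosolic acetyl-CoA, fell by 0.47, 0.46 and 0.41 on the log2 scale in BB, WT-ERG and P199L-ERG. *Fasn*, fatty acid synthase, had log2 fold changes of -0.41 (SE 0.11, adjusted p = 0.00416) in BB, -0.47 (SE 0.11, adjusted p = 0.0011) in WT-ERG and -0.27 (SE 0.11, adjusted p = 0.049) in P199L-ERG, with overlap of the libraries in P199L-ERG. The elongase *Elovl6* rose by 0.35 in BB and 0.17 in P199L-ERG on the log2 scale and was at 0.02 (SE 0.04) in WT-ERG. Of 4 tested LXR partners and targets, 2 were higher in BB, 1 was higher and 1 lower in WT-ERG, and 2 were higher and 1 lower in P199L-ERG, a share near that of all genes in BB and WT-ERG. *Arl4c*, a small GTPase gene known as an LXR target, rose by 2.09, 1.30 and 1.10 on the log2 scale, and the phospholipid enzyme gene *Lpcat3* fell in both ERG lines (-0.10 and -0.20).

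Without inhibitor, 5 of 34 members passed the test between WT-ERG and BB cells, with 1 higher and 4 lower in WT-ERG, against 29.7% of all genes called (15.6% higher and 14.1% lower). The count was 10 without P199L-ERG replicate 4 in DMSO, and 10 without both libraries that stood apart, where *Fdps* at -0.12, *Msmo1* at -0.12, *Cyp51* at 0.09, *Scap* at 0.12 and *Mbtps1* at 0.14 passed as well (adjusted p = 0.00597 to 0.0415). *Abca1* was higher, at 1.06 (SE 0.27, adjusted p = 0.00363), with separate libraries at the low level given above. *Npc1* was lower at -0.38 (SE 0.06, adjusted p = 7.45e-06), *Soat1* at -0.33 (SE 0.06, adjusted p = 0.00014), *Sc5d* at -0.26 (SE 0.04, adjusted p = 1.06e-05) and *Mvd* at -0.15 (SE 0.04, adjusted p = 0.00943), each without overlap. The call of *Mvd* was lost without the low-count filter (adjusted p = 0.0641) and without WT-ERG replicate 3 (-0.12, adjusted p = 0.0544). P199L-ERG against BB gave 7 higher and 3 lower members, a share near that of all genes (28.2% called, 15.3% higher and 12.9% lower). The higher ones were the enzymes *Acat2* at 0.31 (SE 0.07, adjusted p = 0.00137), *Mvk*, *Fdps*, *Fdft1*, *Sqle* and *Cyp51* at 0.12 to 0.22, and *Insig1* at 0.14 (SE 0.04, adjusted p = 0.00826). The lower ones were *Npc1* at -0.43 (SE 0.06, adjusted p = 1.62e-06), *Soat1* at -0.18 (SE 0.06, adjusted p = 0.032) and *Sc5d* at -0.13 (SE 0.04, adjusted p = 0.0215). For *Fdps* the difference was 0.16 with all libraries and 0.06 (adjusted p = 0.235) without P199L-ERG replicate 4 in DMSO. Its call was also lost without BB replicate 1 (0.15, adjusted p = 0.0748) or 4 (0.14, adjusted p = 0.1015) and with the groups alone (0.14, adjusted p = 0.1703). *Sqle* lost its call without BB replicate 4 (0.10, adjusted p = 0.122), among other settings, and *Soat1* without P199L-ERG replicate 4 (-0.13, adjusted p = 0.119) or BB replicate 2 (-0.15, adjusted p = 0.0972), among others. *Sc5d* lost its call with these groups alone (adjusted p = 0.0624) and without BB replicate 1, 2 or 3 (adjusted p = 0.0527 to 0.0744), and *Insig1* without the low-count filter (adjusted p = 0.0878) and with the groups alone (adjusted p = 0.11). Without both libraries that stood apart, *Fdps* (0.07, adjusted p = 0.183), *Sqle* (0.10, adjusted p = 0.0696) and *Soat1* (-0.13, adjusted p = 0.0971) were not called and *Mylip* was higher at 0.19 (adjusted p = 0.0274). The count was 5 with the groups alone and 6 without BB replicate 2. Markers differed between these lines as well, since in DMSO the monocyte and macrophage sums were 786 to 830 CPM in BB, 411 to 433 in WT-ERG and 456 to 519 in P199L-ERG, and 4 of 6 tested were lower and 1 higher in each ERG line. Of 5 neutrophil granule markers, 4 were lower in each ERG line than in BB and 1 was higher in P199L-ERG. Mast cell and basophil sums were higher, at 484 to 528 CPM in WT-ERG and 416 to 488 in P199L-ERG against 372 to 393 in BB, with 2 higher and 1 lower of 4 in WT-ERG and 3 higher and 1 lower in P199L-ERG. Of 5 progenitor markers, 1 was higher and 1 lower in WT-ERG and 3 higher in P199L-ERG. Their part in the differences of the members was not tested. Both comparisons used the same BB libraries, so that values for *Npc1* and *Soat1* in both share their controls.

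Without inhibitor, 7 enzymes of synthesis were higher in P199L-ERG than in WT-ERG. The mutant line was above WT-ERG for 8 of the 34 members and below it for 0, against 4.67% of all genes called (2.23% higher and 2.45% lower). Among the 20 synthesis enzymes 7 were called higher, 18 had a positive difference, and the median was 0.15 on the log2 scale. For 8 of these 20 the libraries of the lines did not overlap, against 7.63% of all genes. The enzymes called were *Pmvk* at 0.28 (SE 0.06, adjusted p = 0.00461), *Fdps* at 0.25 (SE 0.06, adjusted p = 0.00541), *Mvd* at 0.22 (SE 0.04, adjusted p = 0.00169), and *Tm7sf2*, *Fdft1*, *Msmo1* and *Dhcr7* at 0.23, 0.19, 0.16 and 0.16. *Insig1* was also higher, at 0.13 (SE 0.04, adjusted p = 0.0481), with overlapping libraries. Its call was lost without the low-count filter (adjusted p = 0.2506) and with the groups alone (adjusted p = 0.3221), among other settings. It was also lost without WT-ERG replicate 1, 2 or 3 or P199L-ERG replicate 2, 3 or 4 in DMSO (adjusted p = 0.08655 to 0.1533). In the same comparison 2 of 4 mast cell and basophil markers were lower, 2 of 5 neutrophil granule markers higher and 1 lower, 1 of 5 progenitor markers higher, and 1 of 6 monocyte and macrophage markers higher and 1 lower. The part of these markers was not tested.

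The number of these calls depended on the fit. With the replicate number as a block, 13 members passed, adding *Cyp51* at 0.13, *Sc5d* at 0.14, *Stard4* at 0.12 and *Soat1* at 0.15 as higher and *Scap* at -0.14 (SE 0.04, adjusted p = 0.0216) as lower in P199L-ERG. Without replicate 4 of both DMSO groups, the libraries that stood apart, 9 passed, with *Mvk* at 0.24, *Nsdhl* at 0.18 and *Sc5d* at 0.15 joining and *Tm7sf2* (0.24, adjusted p = 0.0507) and *Insig1* (0.12, adjusted p = 0.0868) no longer called. Leaving out other single libraries gave 3 calls at the lowest, without WT-ERG DMSO replicate 2 or replicate 3. With only these 2 groups in the fit none passed at the adjusted threshold, 14 members had an unadjusted p below 0.05, and 18 of the 20 enzymes remained positive in sign, while DESeq2 on all 6 groups called 10.

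**Figure D4:**
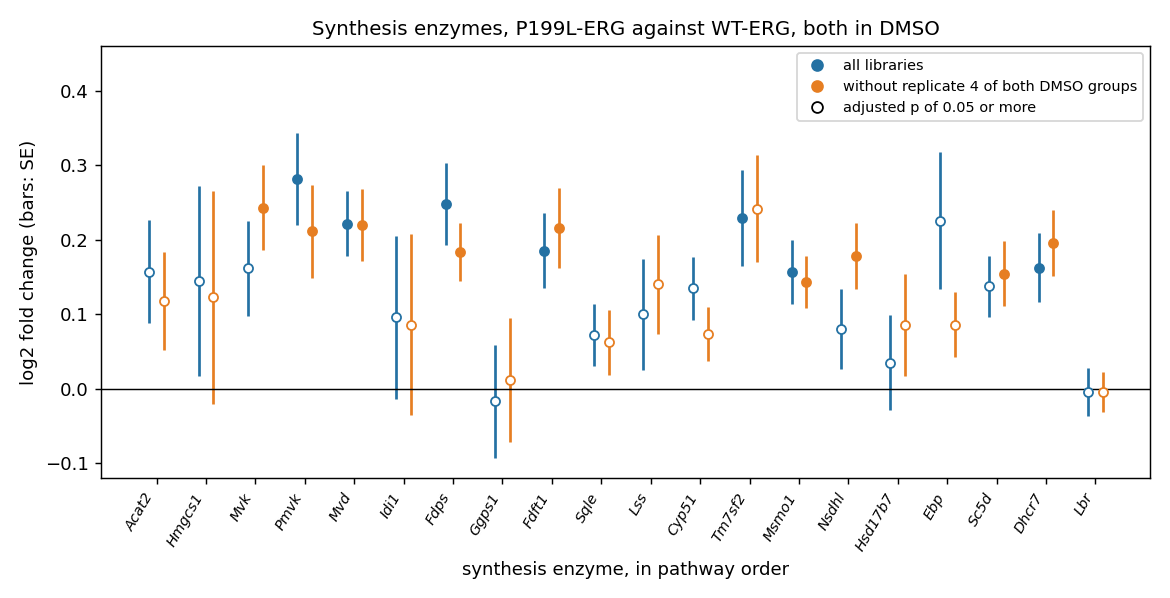
Difference of P199L-ERG from WT-ERG in DMSO, as a log2 fold change, for the 20 synthesis enzymes, with bars of 1 SE, for all libraries and without replicate 4 of both groups. Of the 20 values with all libraries, 18 lie above 0, and *Pmvk* is the highest at 0.28.

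With BRD3308, 1 to 8 of the 34 members passed the test in each comparison of lines. The shares of members called were near those of all genes, which are given beside each comparison. WT-ERG against BB gave 4 higher and 4 lower members, against 21.1% of all genes called (10.4% higher and 10.7% lower), with *Abca1* at 0.83 (SE 0.23, adjusted p = 0.00832), *Insig2* at 0.28 (SE 0.07, adjusted p = 0.00224), *Mylip* at 0.20 (SE 0.06, adjusted p = 0.0207) and *Mbtps1* at 0.18 higher. *Npc1* at -0.34 (SE 0.06, adjusted p = 4.57e-05), *Pmvk* at -0.23 (SE 0.06, adjusted p = 0.0107), *Sc5d* at -0.19 (SE 0.04, adjusted p = 0.000802) and *Nr1h2* at -0.13 (SE 0.04, adjusted p = 0.0306) were lower. The call of *Abca1* was lost without WT-ERG replicate 1 in BRD3308 (0.56, adjusted p = 0.0781), that of *Mylip* in 7 settings (0.15, adjusted p = 0.133, without BB replicate 2 in BRD3308) and that of *Nr1h2* in 5. The count was 5 without WT-ERG replicate 1 in BRD3308, 12 without P199L-ERG replicate 4 in DMSO and 14 without both libraries that stood apart, which enter this comparison only through the shared estimate of spread. The replicate block added *Lss* at -0.21 (adjusted p = 0.00125), *Soat1* at -0.16 (adjusted p = 0.0011) and *Scap* at 0.12 (adjusted p = 0.0307). P199L-ERG against BB gave 4 higher (*Abca1*, *Acat2*, *Mylip* and *Sqle*) and 2 lower members (*Npc1* and *Nr1h2*), against 16.9% of all genes called (8.12% higher and 8.81% lower). Of these, *Abca1* was at 0.78 (SE 0.23, adjusted p = 0.0164) and *Npc1* at -0.32 (SE 0.06, adjusted p = 0.000109). The call of *Abca1* was lost without BB replicate 3 or 4 in BRD3308 (0.68, adjusted p = 0.0642 and 0.0635). Without BB replicate 4 in BRD3308 only *Npc1* passed. The block added *Mbtps1* at 0.14 (adjusted p = 0.0062) and *Sc5d* at -0.11 (adjusted p = 0.0195). Between the ERG lines *Cyp51* alone passed, higher in P199L-ERG at 0.19 (SE 0.04, adjusted p = 0.00842) without overlap, against 3.40% of all genes called (1.31% higher and 2.09% lower). The differences were positive for 19 of the 20 enzymes with a median of 0.11, and the block added *Dhcr7* at 0.13 (adjusted p = 0.0109) and *Sqle* at 0.12 (adjusted p = 0.0339). Without both libraries that stood apart 4 passed between the ERG lines. With BRD3308, 4 of 5 neutrophil granule markers were lower in each ERG line than in BB, 4 of 6 monocyte and macrophage markers were lower and 1 higher, and 2 of 4 mast cell and basophil markers were higher and 1 lower. The mast cell and basophil sums were 308 to 330 CPM in WT-ERG and 269 to 289 in P199L-ERG, against 298 to 339 in BB. Their level in P199L-ERG was thus below that in BB without overlap. The part of all these markers in the differences of the members was not tested.

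The response to BRD3308 itself was not shown to differ between lines for any member. No member passed the test of a difference in response for WT-ERG against BB, P199L-ERG against BB or P199L-ERG against WT-ERG, with 0 called by edgeR and 0 by DESeq2 in each, against 1.73%, 1.05% and 0.0463% of all genes. At an unadjusted p below 0.05, edgeR gave 1 member (*Cyp51*), 4 (*Pmvk*, *Mvd*, *Insig1* and *Abcg1*) and 2 (*Mvd* and *Insig1*), and DESeq2 gave 1, 3 and 2. *Insig1* had the smallest p, with a response more negative in P199L-ERG than in WT-ERG by a difference of -0.22 (95% interval -0.33 to -0.11, adjusted p = 0.285). *Cyp51* responded more negatively in WT-ERG than in BB by a difference of -0.18 (95% interval -0.30 to -0.06, adjusted p = 0.208), and without P199L-ERG replicate 4 in DMSO this passed at -0.18 (SE 0.05, adjusted p = 0.0398). The rise of *Abcg1* differed between P199L-ERG and BB by -0.27 (95% interval -0.50 to -0.04, adjusted p = 0.321). A p above the threshold does not show that the lines responded alike.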

How the data were processed

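RNA sequencing of ER-Hoxb8 cells was analysed from read counts per gene deposited by the authors, in 6 groups of 4 libraries taken from the labels. The authors discarded short reads and mapped the others to GRCm38. The submitters' processing notes name cutadapt, STAR, HTSeq and DESeq2, without versions. For HTSeq, the strand setting and gene annotation were not given in the sources used here. GENCODE M21 gave symbols and exon lengths.

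The members and lists were chosen with earlier results of these data known. Genes were kept with filterByExpr (edgeR 4.0.16, R 4.3.3; minimum count 10, minimum total 15) and scaled by TMM. A quasi-likelihood model with a coefficient per group was fitted to all 24 libraries. P values were two-sided and adjusted over the 12963 tested genes (Benjamini-Hochberg), and a gene is said to have risen, fallen or been higher or lower where its adjusted p was below 0.05. The standard error (SE) was obtained as the size of the log2 fold change over the square root of F, and intervals span 1.96 SE. CPM used the TMM-scaled library totals, and an FPKM is the CPM per kilobase of exon. Group values are means with SD. The 12510036 to 16280939 counts per library limit the precision for low genes, and the intervals cover only the spread between these libraries.

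For each role, values per library are given for up to 4 members with the smallest p in any response and up to 2 in the comparisons of constructs in DMSO, and for any member whose response differed. Others are given by range and count. Sequences are RefSeq promoters of GRCm38.p6.

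Replicate numbers deviated together, with every pair above 0.1, in 6 of 9 comparisons (0.047 to 0.601 over all pairs), but not for the response in WT-ERG or for either ERG line against BB in DMSO. In those 6 the blocked value stands beside a result whose call it changed. Alternatives were RLE factors in edgeR, scaling by total counts only, no low-count filter, DESeq2 1.42.0, the groups compared alone, the replicate number as a block, each library left out in turn, and both libraries that stood apart left out. The scripts were tested on simulated data. All libraries were used. Values of some single genes are not reported here.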

Additional observations from a re-analysis of the deposited data

Results flagged for a closer look

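Among 204 tests of a member in a group of 4 libraries, 10 had a library that stood apart from the other 3, with a gap to the nearest library that exceeded Dixon's 95% critical value for the group's range. Chance alone gives about 1 in 20 such groups, and 10 of 204 is near that rate. Of the 10, 3 were in P199L-ERG DMSO replicate 4 and 1 in WT-ERG DMSO replicate 4, the libraries whose deviations correlated most negatively with exon length. In that P199L-ERG library *Ebp* was at 132 CPM against 86.2 in the nearest one, *Fdps* at 167 CPM against 136, and *Mbtps1*, the site-1 protease gene, was lowest at 95.7 CPM against 109. In that WT-ERG library *Mvk* was highest at 40.4 CPM against 32.5.

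The other 6 were spread over groups. *Mbtps1* was lowest at 98.6 CPM in BB DMSO replicate 3 against 105. In WT-ERG DMSO replicate 1, *Ggps1* was highest at 28.7 CPM against 24.7 and *Pmvk* at 32.6 CPM against 29.9997. With BRD3308, *Fdps* was highest at 82.3 CPM in WT-ERG replicate 1 against 77.8. *Mvk* was highest at 29.1 CPM in P199L-ERG replicate 2 against 27.1, and *Mylip* lowest at 24.1 CPM in P199L-ERG replicate 4 against 24.9995.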

How the results depend on the processing

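The number of members called in the 3 responses to BRD3308 stayed within 24 to 30 under every alternative, including each library left out. Numbers between lines moved more. For WT-ERG against BB in DMSO, 5 members passed, 10 without replicate 4 of both DMSO groups that stood apart, and 4 to 10 with 1 library left out (10 without P199L-ERG DMSO replicate 4). For P199L-ERG against BB in DMSO, 10 passed, 5 with the groups alone and 6 to 11 with 1 library left out (6 without BB DMSO replicate 2). P199L-ERG against WT-ERG in DMSO gave 8, with 5 without a filter, 0 by edgeR with the groups alone (14 at an unadjusted p below 0.05, and 10 by DESeq2 on all groups) and 3 to 9 with 1 library left out (3 without WT-ERG DMSO replicate 2 or 3, 4 without P199L-ERG DMSO replicate 2 or 3, 5 without WT-ERG DMSO replicate 1). In BRD3308, WT-ERG against BB gave 8, 14 without both libraries and 5 to 12 with 1 left out (5 without WT-ERG BRD3308 replicate 1, 12 without P199L-ERG DMSO replicate 4). P199L-ERG against BB gave 6, 3 without a filter and 1 to 8 with 1 left out (1, 2 and 3 without BB BRD3308 replicates 4, 3 and 2, and 3 without P199L-ERG BRD3308 replicate 1 or 3). P199L-ERG against WT-ERG gave 1, 2 with the groups alone, 4 without both libraries and 1 to 4 with 1 left out (4 without P199L-ERG DMSO replicate 4, 3 without P199L-ERG BRD3308 replicate 4). For the difference in response between WT-ERG and BB, 0 passed, 1 without both libraries and 0 to 1 with 1 left out (1, *Cyp51*, without P199L-ERG DMSO replicate 4). The cause was not tested.

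With the replicate number as a block, the calls for P199L-ERG against WT-ERG went from 8 to 13 in DMSO and from 1 to 3 in BRD3308. Those for WT-ERG against BB in DMSO, where not every pair was above 0.1 (0.08 to 0.489), went from 5 to 9. For P199L-ERG against BB in DMSO, not every pair was above 0.1 either (0.083 to 0.467). There the block added *Pmvk* at 0.15, *Tm7sf2* at 0.17, *Abcg1* at 0.23 and *Mylip* at 0.16 as higher. It also added *Lbr* at -0.07 as lower. No member called without the block was lost with it. Correlations of each library with those of other groups were averaged by replicate number. For 16 of 24 libraries the highest mean was that of their own number. Of the named members' values under other settings, 2377 kept their direction and call, 134 in 20 comparisons kept the direction only and 0 reversed. This tally followed only calls of the main fit, for members named by their smallest p. Most of the settings left out a single library, often outside the groups compared, so that most values could hardly change and the tally does not measure robustness. For *Abca1*, 11 to 63 counts per library limit the precision. Whether depth limits the other differences between lines was not tested.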

Other observations

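Genes beside the synthesis pathway were also counted from lists. In lysosomal and membrane sterol transport, 3 of 9 genes were higher and 2 lower with BRD3308 in BB and in WT-ERG, and 4 higher and 4 lower in P199L-ERG. Of all genes, 45.9% in BB, 48.0% in WT-ERG and 48.5% in P199L-ERG were called in either direction. *Lipa*, the lysosomal lipase that frees cholesterol from esters, rose by 0.68, 0.89 and 0.89 on the log2 scale in BB, WT-ERG and P199L-ERG. *Lrp1*, an endocytic receptor of lipoproteins and other ligands, rose by 1.81, 2.31 and 2.30, and *Nceh1*, a cholesterol ester hydrolase, by 0.38, 0.43 and 0.40. The receptor of high-density lipoprotein *Scarb1* fell by 0.37, 0.28 and 0.26 on the log2 scale, and the late endosomal sterol carrier *Stard3* by 0.30, 0.27 and 0.26. The markers of monocytes and macrophages rose in the same libraries, and their part in these changes was not tested.

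In sterol-regulated degradation, 3 of 5 genes were lower and 1 higher in BB, 4 lower and 0 higher in WT-ERG, and 3 lower and 0 higher in P199L-ERG. *Erlin1* and *Erlin2*, which form a complex in the endoplasmic reticulum that takes part in this degradation, fell in each line, by 0.42, 0.40 and 0.31 and by 0.23, 0.25 and 0.24 on the log2 scale. Among 9 genes that use isoprenoids, 4 were lower and 2 higher in BB, 5 and 1 in WT-ERG, and 6 and 2 in P199L-ERG. *Fnta*, the shared subunit of the prenyltransferases for farnesyl and geranylgeranyl groups, fell by 0.22, 0.31 and 0.25, and *Pdss1* and *Pdss2*, which build the coenzyme Q side chain, fell in each line. *Dhdds*, of dolichol synthesis, rose by 0.21, 0.23 and 0.21. Shares of all genes called in these responses were 45.9%, 48.0% and 48.5%.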
